A study of Homo sapiens with 4 samples.

Results

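CEBPB peaks were examined around the starts of 7 genes that epithelia use against microbes: LCN2, PI3, SLPI, CCL20, NOD2, NOS2 and DUOX2. All summits of the peak lists were taken, with all reproducible regions, that is, peaks of both replicates that the authors' table lists with an irreproducible discovery rate (IDR) of at most 0.05, where they lay within 75 kb of a gene start given to the nearest kb in the hg19 build. The windows held 49 of the 80530 summits of replicate 1, 57 of the 104307 summits of replicate 2 and 19 of the 25602 distinct reproducible regions on chromosomes 1 to 22 and X. The 7 genes were chosen by function and position with earlier results of these data known, and no measured value entered the rule. The data came from NCM460, a human cell line of colon epithelium, for which the labels name no treatment. An antibody to CEBPB was used to pull down chromatin in 2 samples, which the study's description calls independent experiments, and 2 input samples of sonicated chromatin served as the control. The inputs entered the values only as the background of each peak, and all 4 samples came from the same cell line, so no treatment or cell type was compared. No RNA was measured, and no expression of the 7 genes can be read from these data.

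CEBPB is a basic leucine zipper transcription factor that binds DNA as a dimer and is itself induced by inflammatory cytokines and bacterial products. In epithelia and myeloid cells it acts at genes of the acute phase and of innate defence, often beside NF-kB and AP-1 factors. LCN2 (lipocalin 2, also called NGAL) binds bacterial siderophores and so withholds iron. PI3 (elafin) and SLPI (secretory leukocyte peptidase inhibitor) are secreted inhibitors of neutrophil proteases. CCL20 is a chemokine that draws cells bearing the receptor CCR6, and NOD2 is a cytosolic sensor of bacterial muramyl dipeptide. NOS2 makes nitric oxide and DUOX2 makes hydrogen peroxide at the epithelial surface.

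CEBPB had strong sites at the starts of LCN2, PI3 and SLPI in both replicates and a weaker one at the start of CCL20. A site within 1 kb of the start used was therefore seen in both replicates at 4 of the 7 genes. None was called within 1 kb of the starts used for NOD2, NOS2 and DUOX2. NOD2 has 2 RefSeq starts 2432 bases apart, so its place here may depend on the start used. NOD2 had a site 2.8 kb from the start used, and within 3 kb the number was 5 of 7. A count over all gene starts was not made, so neither number has a general rate beside it. CCL20 had the most sites, with 7 reproducible regions, and DUOX2 had none. The value given for each site is the authors' fold, which is the fragment pileup over the local input background, each with 1 added. Fragments are the extended reads at the summit, recovered from the deposited fold and p-value, and the background is in expected fragments on the scaled pileup. For scale, the median reproducible region of the genome had a fold of 15.3 in replicate 1 and 16.0 in replicate 2, on 58 and 77 fragments. The recovered depth of replicate 1 was 0.635 times that of replicate 2. Upstream and downstream are in the direction of transcription, and a distance from a start carries the rounding of that start to 1 kb. That leaves the side of a summit within 0.5 kb uncertain at LCN2, PI3, SLPI and CCL20.

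Promoter sequences show which motif letters lie near the starts that did and did not hold a site. RefSeq promoters of the GRCh38.p14 build, from 250 bases before to 50 after the start, were at hand for 4 of the 7 genes, namely LCN2, CCL20, DUOX2 and NOD2, and not for PI3, SLPI and NOS2. The 3 sequences shown are those of a gene with a strong site at the start (LCN2, chr9:128149203-128149502, plus strand), a gene with a weaker one (CCL20, chr2:227813592-227813891, plus strand) and a gene with no called site (DUOX2, chr15:45114123-45114422, minus strand). Capitals mark matches, on either strand, to the C/EBP letters TTNNGCAA, the AP-1 letters TGANTCA and the NF-kB letters GGAANNNCC.
LCN2: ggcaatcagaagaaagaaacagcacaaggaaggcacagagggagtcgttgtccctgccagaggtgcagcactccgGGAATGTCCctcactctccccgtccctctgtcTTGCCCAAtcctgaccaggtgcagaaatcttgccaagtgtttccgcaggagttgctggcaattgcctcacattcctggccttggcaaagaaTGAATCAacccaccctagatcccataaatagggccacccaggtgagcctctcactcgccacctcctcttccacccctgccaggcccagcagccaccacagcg
CCL20: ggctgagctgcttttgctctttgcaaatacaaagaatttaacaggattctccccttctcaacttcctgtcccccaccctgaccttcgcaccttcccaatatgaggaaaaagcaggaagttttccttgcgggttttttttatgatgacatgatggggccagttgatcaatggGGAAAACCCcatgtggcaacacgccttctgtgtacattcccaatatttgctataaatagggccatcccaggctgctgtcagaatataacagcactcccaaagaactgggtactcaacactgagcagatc
DUOX2: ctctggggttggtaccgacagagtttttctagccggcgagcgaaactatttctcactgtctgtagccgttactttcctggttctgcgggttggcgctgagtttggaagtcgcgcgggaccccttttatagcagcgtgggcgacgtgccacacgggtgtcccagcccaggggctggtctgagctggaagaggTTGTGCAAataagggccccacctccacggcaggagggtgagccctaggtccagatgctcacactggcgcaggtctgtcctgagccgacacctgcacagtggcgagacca

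A match to TTNNGCAA stood in 2 of the 4 genes, LCN2 and DUOX2. Over all 35116 promoters the share was 10.5%, counted per promoter and not per gene, and NOD2 has 2 of these promoters. In LCN2 the match TTGCCCAA, which carries the motif on the opposite strand, lay 143 to 136 bases upstream of the start. The same promoter held the NF-kB match GGAATGTCC 175 to 167 bases upstream and the AP-1 match TGAATCA 52 to 46 bases upstream, letters found in 20.1% and 7.71% of all promoters. LCN2 was thus the only one of the 4 genes with all 3 motifs. The share of all promoters with all 3 was not counted, so this has no general rate beside it. In DUOX2 the match TTGTGCAA lay 59 to 52 bases upstream, although no CEBPB summit was called at that start. CCL20 had the NF-kB match GGAAAACCC 79 to 71 bases upstream and no match to TTNNGCAA in this window. NOD2 has 2 starts in the table, 2432 bases apart, and neither promoter matched any of the 3 motifs. The full palindrome TTGCGCAA, present in 0.151% of promoters, was in none of the 4 genes, and the wider letters TTNNGNAA, present in 36.8%, were also in both NOD2 promoters. None of the motifs overlapped another in the sequences shown. These are matches of letters in 300-base windows of another build, and they were not placed on the summits.

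**Figure D1:**
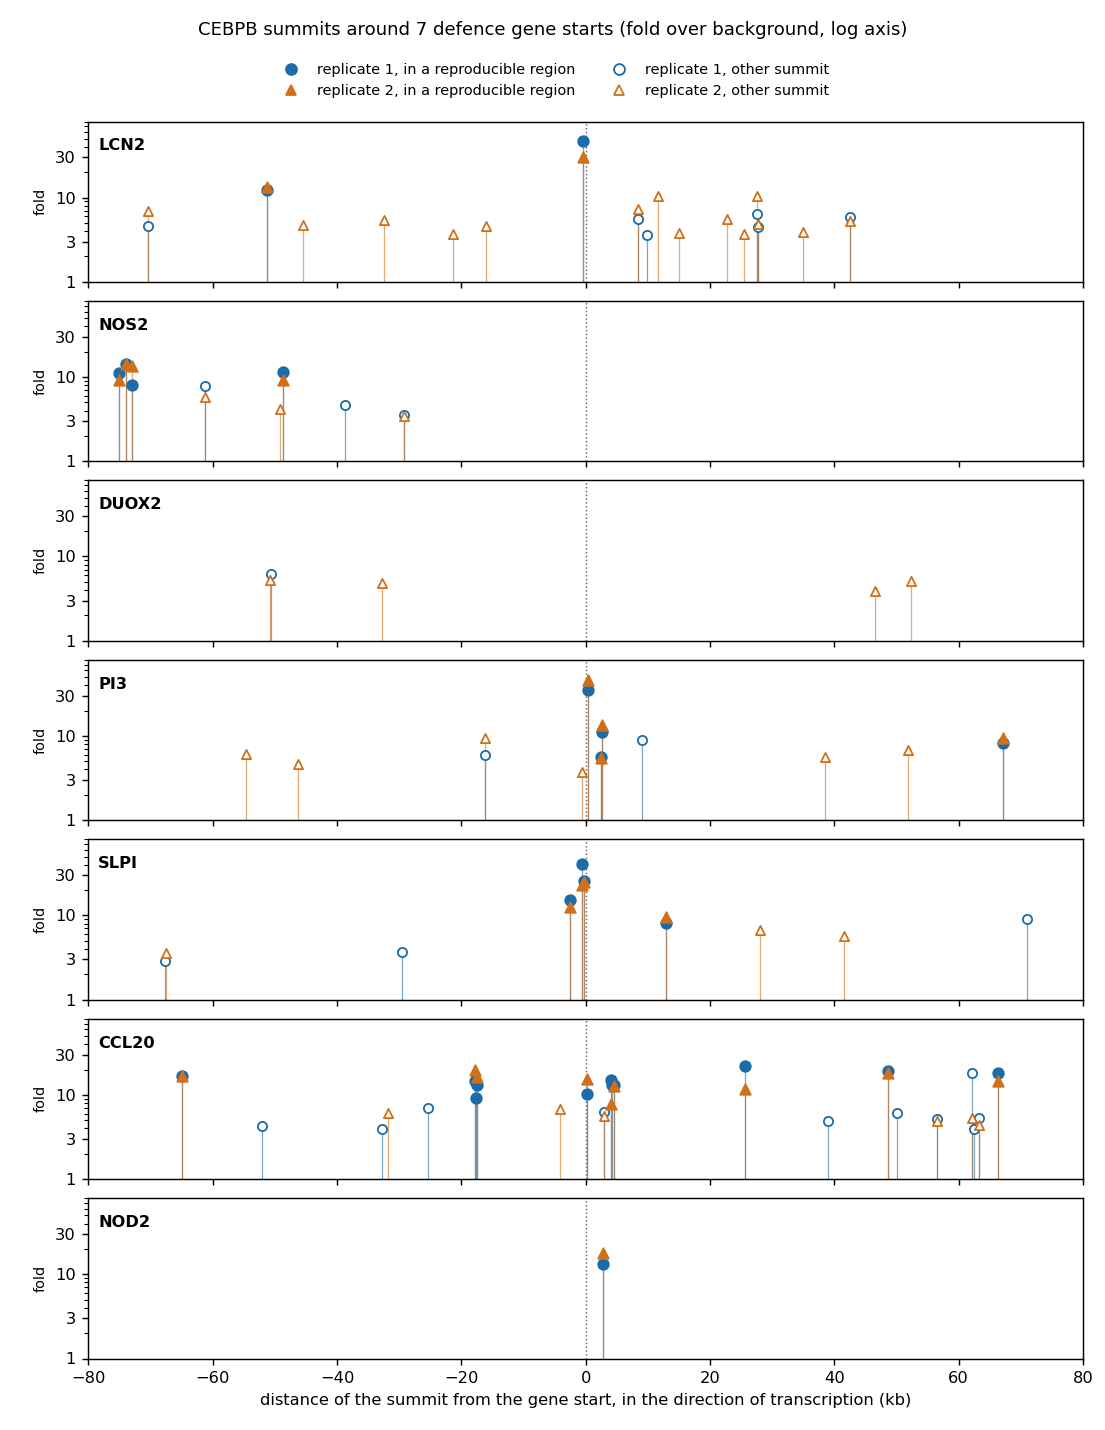
Distance of each CEBPB summit from the gene start in kb (horizontal, in the direction of transcription) and its fold over background (vertical, log axis) for the 7 genes, with replicate 1 as circles and replicate 2 as triangles. Filled symbols are summits in a reproducible region; they stand at the starts of LCN2, PI3, SLPI and CCL20, only upstream of NOS2, and nowhere around DUOX2.

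LCN2 had the highest fold of the 19 regions in replicate 1. Its site (chr9:130911311-130911890, 9q34.11) lay 0.4 kb upstream of the rounded start and had a fold of 47.4 in replicate 1 and 30.0 in replicate 2, or 38.7 ± 12.3 (SD, n = 2). It rested on 191 fragments over a background of 2.75 in replicate 1 and on 218 fragments over 4.84 in replicate 2. In fold it stood above 98.1% of all reproducible regions in replicate 1 and above 89.1% in replicate 2, and in fragments above 96.8% in each. The summits of the replicates lay 3 bp apart. The second region (chr9:130860454-130861035), 51.3 kb upstream, held 120 and 142 fragments over backgrounds of 8.00 and 7.49, for a fold of 12.5 and 13.5. Its fragments were above those of 85.1% and 84.0% of regions, but its fold was above only 34.8% and 36.1%.

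The rest of the LCN2 window differed between the lists. Replicate 1 had 8 summits there and replicate 2 had 16, and 20.5% of the 150-kb windows of the genome held at least 8 in replicate 1 and 5.58% at least 16 in replicate 2. Of the 7 summit pairs within 100 bp of each other, 5 were outside the reproducible regions. The tallest of these lay 27.5 kb downstream, with a fold of 6.34 in replicate 1 and 10.4 in replicate 2 on 40 and 77 fragments. A summit 11.6 kb downstream of fold 10.5 on 46 fragments was called in replicate 2 alone. The band 9q34.11 held 80 reproducible regions in 3.2 Mb, of which 2 were in the LCN2 window. A further 2 lay just beyond it, at 76.3 kb (fold 15.8 and 20.1) and at 77.6 kb (fold 21.0 and 18.4).

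PI3, which encodes elafin, had the highest fold of the 19 regions in replicate 2. Its site (chr20:43802923-43803669, 20q13.12) lay 0.4 kb downstream of the rounded start, which leaves its side uncertain. The site had a fold of 35.3 in replicate 1 and 45.8 in replicate 2, or 40.5 ± 7.48 (SD, n = 2). It held 200 fragments over a background of 4.28 in replicate 1 and 228 over 3.00 in replicate 2. The site stood above 93.1% and 98.5% of regions in fold. The order of the LCN2 and PI3 sites in fold thus turned round between the replicates, with LCN2 higher in replicate 1 and PI3 higher in replicate 2, whereas their fragments were close in both. Beside it, a broad region 2.7 kb downstream (chr20:43805184-43806032, 849 bp) had 2 summits in each replicate. Its taller summit had a fold of 11.1 and 13.6 on 35 and 77 fragments, and its lower one a fold of 5.63 and 5.47. Weaker summits of the PI3 window included a pair 16.2 kb upstream of fold 5.94 in replicate 1 and 9.40 in replicate 2, which was not in a reproducible region. A summit 9.0 kb downstream of fold 8.97 was called in replicate 1 alone, and one 0.6 kb upstream of fold 3.78 in replicate 2 alone.

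SLPI, which like PI3 carries the WAP domain of protease inhibitors, had a region at its start with 2 summits in each replicate (chr20:43882979-43883978). At 1000 bp it was wider than 97.2% of all reproducible regions. The summit 0.6 kb upstream had a fold of 40.3 in replicate 1 and 23.1 in replicate 2, or 31.7 ± 12.1 (SD, n = 2), on 202 and 259 fragments. The summit 0.3 kb upstream had a fold of 25.4 and 24.9 on 191 and 219 fragments. The paired summits lay 355 bp apart in replicate 1 and 346 bp apart in replicate 2. The background of the outer summit was 3.67 in replicate 1 and 8.00 in replicate 2, so its fold was lower in replicate 2. In fold this summit stood above 96.0% of regions in replicate 1 and above 76.0% in replicate 2. Its fragments in replicate 2 were above those of 99.2% of regions. A further region 2.5 kb upstream (chr20:43885121-43885675) had a fold of 15.3 and 12.4 on 51 and 54 fragments.

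The starts of PI3 and SLPI lie 80 kb apart, with SEMG1 and SEMG2, genes of semen proteins, between them in RefSeq order. Their windows shared 1 reproducible region (chr20:43869949-43870249), 67.1 kb downstream of PI3 and 12.9 kb downstream of SLPI. It was the weakest of the 19 by mean fold, with 8.22 and 9.45 on 20 and 46 fragments, and its IDR of 0.0489 was just inside the limit of 0.05 of the table. The other 2 reproducible regions of each gene lay within 3 kb of its start.

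**Figure D2:**
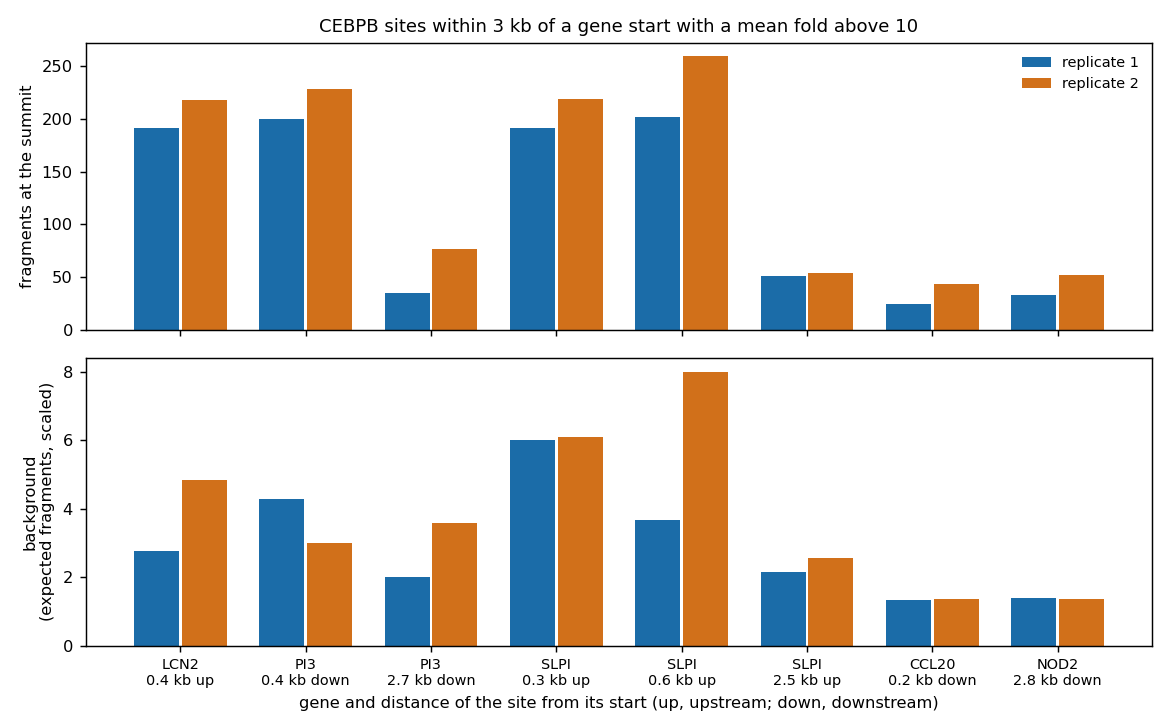
Fragments at the summit (upper bars) and background in expected fragments (lower bars) for the 8 sites of mean fold above 10 within 3 kb of a start, with replicate 1 left and replicate 2 right in each pair. The 4 summits within 1 kb of the LCN2, PI3 and SLPI starts hold 191 to 259 fragments, and the other sites, those 2.7 kb from PI3 and 2.5 kb from SLPI included, 25 to 77.

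CCL20, the ligand of CCR6, had 7 reproducible regions spread over 132 kb, and 1.76% of 150-kb windows of the genome held at least as many. Of the windows, 0.817% held at least its 21 summits in replicate 1 and 6.96% at least its 15 in replicate 2. The site at the start (chr2:228679060-228679379, 2q36.3), 0.2 kb downstream, had a fold of 10.4 in replicate 1 and 15.3 in replicate 2 on 25 and 44 fragments. That was the lowest mean fold of the 7 regions, whose means ran from 12.9 to 18.8, and its fragments were above only 7.71% and 15.4% of all regions. By fold it was below all 6 of the other CCL20 regions in replicate 1, but above 3 of them in replicate 2. By fragments it was below all 6 in both replicates, whereas at LCN2, PI3 and SLPI the start held the most fragments of any region in the window.

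The strongest CCL20 region by mean fold lay 48.6 kb downstream (chr2:228727418-228727795), with 19.2 in replicate 1 and 18.4 in replicate 2 on 82 and 72 fragments. The region 25.7 kb downstream (chr2:228704517-228704875) had a fold of 22.2 and 11.6 on 47 and 57 fragments. Its backgrounds of 1.00 and 3.00 differed more than its fragments did, and that of replicate 1 was close to the lowest value of that list. The region 66.4 kb downstream (chr2:228745211-228745536) had a fold of 17.9 and 14.6. Upstream, the region at 65.0 kb (chr2:228613813-228614130) had a fold of 16.9 in each replicate on 48 and 62 fragments, and the region at 17.8 kb (chr2:228660817-228661840) had 14.5 and 19.7. The region 4.6 kb downstream (chr2:228682707-228683812), held the most fragments at this gene, 99 and 95, for a fold of 13.2 and 12.8. The regions 17.8 kb upstream and 4.6 kb downstream were broad, at 1024 and 1106 bp, and each had 3 summits in replicate 1 and 2 in replicate 2. Of the 13 summit pairs at CCL20, 4 were outside reproducible regions, the nearest 3.0 kb downstream of the start with a fold of 6.22 in replicate 1 and 5.66 in replicate 2. In RefSeq order DAW1 is the next gene on the downstream side, and no region was assigned to either gene.

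NOD2 had a single reproducible region, and it was the only summit of either list in its window. The site (chr16:50733682-50733972, 16q12.1) lay 2.8 kb downstream of the start given, with a fold of 13.3 in replicate 1 and 18.1 in replicate 2 on 33 and 52 fragments. Its background in replicate 2, 1.36, was at the lowest value of that list. In replicate 1 the background was 1.38, against a lowest value of 1.00. The start used was not matched to either of the 2 RefSeq starts of NOD2, which are 2432 bases apart on the plus strand. If it is the first of them, the second lies 2432 bases downstream, towards the site. The site would then be much closer to the second start than 2.8 kb. The distance of the site from each RefSeq start was not measured.

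NOS2, the inducible nitric oxide synthase, had 4 reproducible regions, all of them far upstream (17q11.2). They lay 48.7 kb (chr17:26176553-26176893), 73.0 kb (chr17:26200889-26201204), 73.9 kb (chr17:26201651-26202079) and 74.97 kb (chr17:26202815-26203220) from the start. The last was at the very edge of the window, and the outer 3 lay within 2.33 kb. The strongest, at 73.9 kb, had a fold of 14.4 in replicate 1 and 14.1 in replicate 2 on 61 and 66 fragments. The region at 48.7 kb had a fold of 11.3 and 9.16, and that at the edge a fold of 11.1 and 9.25. The region at 73.0 kb had 7.95 and 13.6 on 59 and 58 fragments, over backgrounds of 6.0 and 2.50. No summit of either list was closer to the start than 29.3 kb in replicate 1 and 29.2 kb in replicate 2, where the fold was 3.54 and 3.40, and none was called downstream. LYRM9 and NLK follow NOS2 on that upstream side in RefSeq order, and the distance of these regions to them was not measured in hg19.

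DUOX2, the dual oxidase of the gut surface, had no reproducible region within 75 kb (15q21.1). A single pair of summits was shared by the replicates, 50.7 kb upstream, with a fold of 6.20 in replicate 1 and 5.25 in replicate 2 on 19 and 25 fragments. Replicate 2 had a further 3 summits, 32.8 kb upstream and 46.5 and 52.3 kb downstream, of fold 4.83, 3.90 and 5.08. Its partner gene DUOXA2 and the related DUOX1 lie on the upstream side in RefSeq order. Windows with no reproducible region made up 43.4% of the genome. At the lowest background a summit was called with as few as 7 fragments in replicate 1 and 8 in replicate 2, and signal below that at the starts of DUOX2 and NOS2 was not detectable at this depth.

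**Figure D3:**
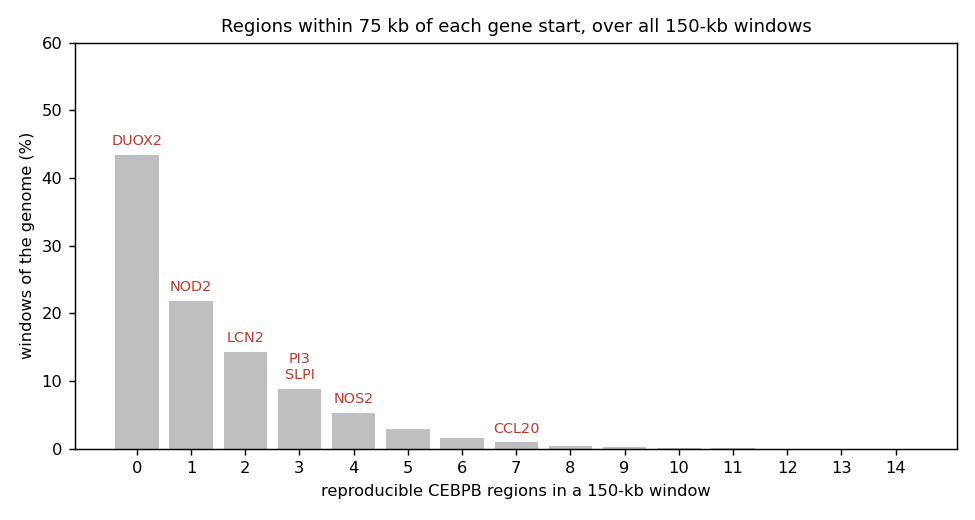
Percent of the 18723 windows of 150 kb across the genome (vertical) by their number of reproducible CEBPB regions (horizontal), with the genes named above the bar of their own count. DUOX2 stands at 0 and CCL20 at 7, and the other genes at 1 to 4.

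At least 1 reproducible region was present at 6 of the 7 loci and in 56.6% of all 150-kb windows. The windows of the genome include stretches with no gene, and those of PI3 and SLPI overlap. Over all 19 regions the fold was near that of the genome. Its median was 14.4 in replicate 1 and 14.1 in replicate 2, against 15.3 and 16.0 over all reproducible regions, and the values ran from 7.95 to 47.4 in replicate 1 and from 9.16 to 45.8 in replicate 2. In 5 regions the fold was above the genome median in both replicates, in 10 below it in both, and in 4 on different sides. The start sites of LCN2, PI3 and SLPI and the CCL20 regions 65.0 and 48.6 kb from its start made up the 5. Of all regions, 36.8% were above the median in both replicates and 36.8% at or below it in both. An IDR of at most 0.01 was reached by 13 of the 19 (68.4%), near the 60.6% of all regions.

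Summits near these genes were in a reproducible region in 25 of 49 cases in replicate 1 (51.0%, exact binomial 95% interval 36.3 to 65.6), against 36.5% of all summits of that list. In replicate 2 they were in 23 of 57 cases (40.4%, interval 27.6 to 54.2), against 28.6%. The share over all summits lay just inside the interval in both replicates. The intervals cover counting error only, and several summits share a region. Of 37 summit pairs, 14 (37.8%) were outside reproducible regions, against 55.5% of all 63590 pairs, with a median fold of 5.72 in replicate 1 and 5.31 in replicate 2. The 12 summits of replicate 1 with no partner had folds of 3.56 to 13.1 and the 20 of replicate 2 folds of 3.70 to 10.5, with a median of 4.80 in each. They made up 24.5% of the summits near the genes in replicate 1, against 21% of all summits, and 35.1% in replicate 2, against 39%.

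**Figure D4:**
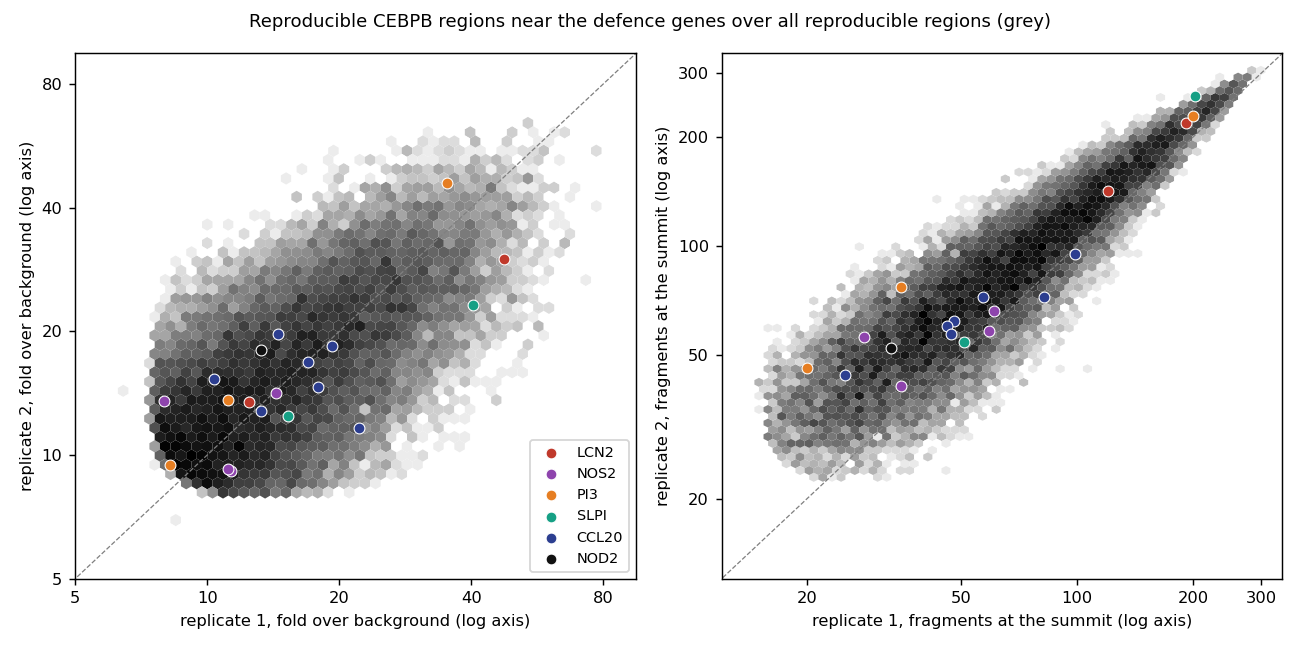
Fold over background (left) and fragments at the summit (right) in replicate 1 (horizontal) and replicate 2 (vertical), on log axes, for the 19 reproducible regions near the genes as coloured points, over all 25602 reproducible regions in grey, with darker shades for more regions on a log scale. The region shared by PI3 and SLPI has the colour of PI3, the dashed line marks equal values, and 16 of the 19 points lie above it in fragments.

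The replicates were compared site by site on fragments, which leaves the background out. Of the 19 regions, 16 had more fragments in replicate 2, the deeper sample, as had 85.8% of all regions, and the median share of replicate 1 over all regions was 43.6%. By the exact binomial test against regions of like height, adjusted over all 25602 regions, 0 of the 19 differed at an adjusted p of at most 0.05, against 2.95% of all regions, and 2 had an unadjusted p of at most 0.05. These were the CCL20 region 48.6 kb downstream (82 and 72 fragments, exact p = 0.0147, adjusted p = 0.166) and the PI3 region 2.7 kb downstream (35 and 77 fragments, exact p = 0.0213, adjusted p = 0.201). The start sites of LCN2, PI3 and SLPI gave 46.7%, 46.7% and 43.8% of their fragments in replicate 1, against 47.0%, 47.2% and 47.5% at regions of like height, so the differences in fold between the replicates at these sites were not matched by one in fragments.

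Among the summit pairs, the same exact test called 1 of 37, against 3.15% of all 63590 pairs. It lay 62.1 kb downstream of CCL20 (peak of replicate 1 at chr2:228740646-228741455), with a fold of 18.3 in replicate 1 and 5.36 in replicate 2. Replicate 1 held 79 fragments over a background of 3.06 and replicate 2 held 39 over 5.00. Replicate 1 thus gave 66.9% of the fragments where 42.6% was the share at pairs of like height (exact binomial test, adjusted p = 0.000104). This summit was not in the IDR table, although its fold in replicate 1 was above that of 5 of the 7 CCL20 regions. These tests compare 2 libraries and their counting noise, not conditions.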

How the data were processed

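The peak list of each CEBPB ChIP sample was analysed, together with the IDR results for both. The build, per the submitters' processing notes, is hg19, and the tools are MACS2 2.1.2, Bowtie2 2.3.4, bedtools 2.25.0, SAMtools 1.9 and FastQC 0.11.7. The pairing of inputs with ChIP samples and the handling of duplicates are not given in the sources used here. Peaks were called per sample. In the deposited lists the values per summit are a fold (a ratio to background) and the −log10 of the p-value and of the q-value, with q of at most 0.05, and the authors' IDR table has a score, −log10 of the global IDR, which is at most 0.05 in every entry. Of the columns of per-sample values there, 4 were not used.

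Fragments and background were solved from fold and p with scales of 0.927 and 0.800 per read in replicates 1 and 2. Whole fragments fitted 100% of summits within 0.005 on −log10 p, and 1.53% and 1.81% had more than 1 solution, 1 and 0 of them near these genes. The step and the exact binomial test, which took as its expected share a running median over 1001 regions of similar height and used Benjamini-Hochberg adjustment, were tested on simulated data. IDR entries of the same interval were merged, summits were paired within 100 bp, and results are for chromosomes 1 to 22 and X, in positions counted from 1. The replicates may share more than the labels say, so the tests cover counting error only.

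The 7 genes, the motifs and the lists were chosen with earlier results of these data known. The rule for named sites took all 7 genes, every reproducible region where there were at most 6 and otherwise the 6 of highest mean fold, the strongest summits where there was none, and any site within 1 kb of a start. Other windows, IDR limits, overlaps and motifs were tried, and the comparison of all summit pairs and start distances of 0.5 and 3 kb were added after seeing the data. Bands came from circlize 0.4.16. Sequence and annotation of hg19 were not used here, so exons and introns are not given, and the strands of NOS2, PI3 and SLPI are background knowledge. Python 3.11.15, NumPy 2.4.6, SciPy 1.17.1 and pandas 2.3.3 were used.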

Additional observations from a re-analysis of the deposited data

How the results depend on the processing

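The number of reproducible regions near the 7 genes was 19 and became 36 when summit pairs with a −log10 q of at least 2 in both replicates were counted instead. With peaks of 1 replicate alone, at −log10 q of at least 5, it was 34 without replicate 2 and 41 without replicate 1. It was 13 within 50 kb, 24 within 100 kb and 13 at an IDR of at most 0.01. By the starts used, genes with a site at the start numbered 4 within 0.5 kb, 4 within 1 kb and 5 within 3 kb. The starts are rounded to 1 kb, so the 0.5-kb limit cannot test a tighter distance. No count over all gene starts was made. DUOX2 gained 1 site under summit pairs and under either replicate alone. The share of summits with a counterpart became 81.6% for an overlap of 1 bp and 77.6% for 50% of the length in replicate 1, and 64.9% for both in replicate 2, against 82.8% and 64.7% of all summits for 1 bp and 80.2% and 61.5% for 50%. Sites that differed between the replicates numbered 0 among reproducible regions and 1 among all summit pairs, a comparison chosen after seeing the data. Genes with a C/EBP match numbered 2 with TTNNGCAA and 0 with TTGCGCAA. No paired analysis was possible because ChIP and input were never tested as groups: input reached these values only as the background of each peak. Depth limits weak sites: a peak needed at least 7 fragments in replicate 1 and 8 in replicate 2.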
